A study of Mus musculus with 12 samples.

Results

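The matrix metalloproteinase (MMP) genes Mmp2, Mmp3, Mmp9, Mmp10, Mmp11, Mmp13, Mmp14, Mmp15 and Mmp19 were followed in cultured 4T1 cells, a mouse mammary carcinoma line. They were taken by symbol from both count tables, 9 of 31017 genes. MMPs are zinc-dependent endopeptidases made as inactive precursors, and they cleave the proteins of the extracellular matrix and many cell surface and secreted proteins. Most are secreted and are activated outside the cell by other proteases, while the membrane-type members are cleaved by furin-like convertases on their way to the cell surface. Several MMP genes are known to respond to the AP-1 and ETS families of transcription factors, and Etv4 belongs to the PEA3 group of ETS factors.

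Polyadenylated RNA was sequenced from 6 groups with 2 libraries each. Clone 1 and clone 2 are Etv4 knockout lines, each grown out of 1 clone after Cas9 and an sgRNA against the gene had been delivered by nucleofection. The control cells are pooled clones that had received control sgRNA. Each of the 3 was grown in collagen I gels (3D) and on plastic (2D). Gels were digested with collagenase I before RNA was taken and plastic cultures were not, and the formats stand in separate tables, so format, digestion and table cannot be told apart. The labels give 2 collagen concentrations without saying which gel had which. Nor do they give the origin of the replicates, and if both came from 1 culture the p-values reflect technical spread.

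Libraries held 26.5 to 33.2 M counts in 3D and 12.3 to 18.7 M in 2D. The 9 MMP genes took 0.0377 to 0.0623% of the counts of a 3D library and 0.0159 to 0.0226% of those of a 2D library. Etv4 itself was at 69.9 and 69.1 counts per M (CPM) in clone 1, 86.6 and 91.5 CPM in clone 2 and 94.7 and 99.4 CPM in control in 3D. On plastic Etv4 was at 49.8 and 49.2 CPM in clone 1, 49.3 and 46.0 CPM in clone 2 and 78.1 and 76.0 CPM in control. A gene's total count need not fall when small insertions or deletions disrupt it, so Etv4 RNA is a weak check of the knockout, and in clone 2 in 3D it did not pass the test (log2 change -0.12 ± 0.06, q = 0.116, where q is edgeR's p after Benjamini-Hochberg adjustment over all genes). The 6 epithelial markers, among them Epcam, Krt8 and Krt18, were all detected and summed to 2839 to 3282 CPM in 3D libraries and 3544 to 4720 CPM in 2D libraries.

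Mmp3, Mmp10 and Mmp13 lie close together on mouse chromosome 9 and turned out to be the members with the widest ranges, and Mmp14 was the most abundant in counts. The regions around their annotated starts are shown because the targeted factor is a DNA-binding protein of the ETS family and because the first 3 share a motif that the Mmp14 window does not hold. Start regions of 300 bases (250 before and 50 after the start) were available for 6 of the 9 members, from RefSeq on build GRCm38.p6. Capitals mark each TGAGTCA, the AP-1 heptamer, and each GGAA, the ETS core, on either strand (TGACTCA and TTCC on the other strand), and all else is in lower case.
Mmp3, chr9:7445572-7445871, plus strand: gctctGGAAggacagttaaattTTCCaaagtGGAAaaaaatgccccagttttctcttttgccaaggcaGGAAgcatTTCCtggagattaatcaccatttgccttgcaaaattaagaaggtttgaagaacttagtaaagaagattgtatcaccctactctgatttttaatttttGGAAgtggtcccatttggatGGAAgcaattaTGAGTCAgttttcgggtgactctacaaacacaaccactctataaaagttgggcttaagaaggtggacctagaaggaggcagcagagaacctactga
Mmp10, chr9:7502092-7502391, plus strand: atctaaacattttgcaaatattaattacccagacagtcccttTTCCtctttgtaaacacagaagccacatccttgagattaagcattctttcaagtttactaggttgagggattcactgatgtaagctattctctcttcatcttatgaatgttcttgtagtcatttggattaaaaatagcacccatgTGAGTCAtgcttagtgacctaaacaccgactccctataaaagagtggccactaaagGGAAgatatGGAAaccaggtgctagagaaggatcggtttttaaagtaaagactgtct
Mmp13, chr9:7272264-7272563, plus strand: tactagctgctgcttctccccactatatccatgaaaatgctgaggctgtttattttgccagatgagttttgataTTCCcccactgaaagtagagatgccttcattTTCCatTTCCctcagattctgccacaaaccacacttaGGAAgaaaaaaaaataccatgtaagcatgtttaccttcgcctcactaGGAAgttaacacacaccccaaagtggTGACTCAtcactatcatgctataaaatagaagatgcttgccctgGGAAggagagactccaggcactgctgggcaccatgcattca
Mmp14, chr14:54431348-54431647, plus strand: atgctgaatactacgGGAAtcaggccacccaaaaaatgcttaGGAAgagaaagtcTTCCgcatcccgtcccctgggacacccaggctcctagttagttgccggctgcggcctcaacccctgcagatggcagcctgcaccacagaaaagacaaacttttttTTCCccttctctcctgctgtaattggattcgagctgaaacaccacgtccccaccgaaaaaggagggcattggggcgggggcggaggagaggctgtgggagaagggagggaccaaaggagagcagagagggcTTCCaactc

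The AP-1 heptamer stood once in each of the Mmp3, Mmp10 and Mmp13 regions, with its first base 46, 63 and 35 bases before the start. Its letters are not in the windows of Mmp11, Mmp14 and Mmp15, and 5.20% of the 32851 start regions in the table hold it. A TATAAA on the gene's strand stood in the same 3 regions, at 7, 29 and 16 bases before the start, and 8.32% of all regions hold one. The ETS core GGAA is common, in 96.0% of all regions, and had 7 matches in Mmp3, 3 in Mmp10, 6 in Mmp13, 5 in Mmp14, 1 in Mmp15 and 0 in Mmp11. AGGAAG, a longer PEA3-type form that contains the GGAA core, had 1 match in Mmp3, 2 in Mmp13 and 1 in Mmp14, against 35.4% of all regions with at least 1. These are matches of letters and not sites of binding, which was not measured. The regions printed were picked with levels and motifs known, so the contrast between them tests nothing. The wide range of Mmp13 also rests on very few counts in 2D.

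**Figure D1:**
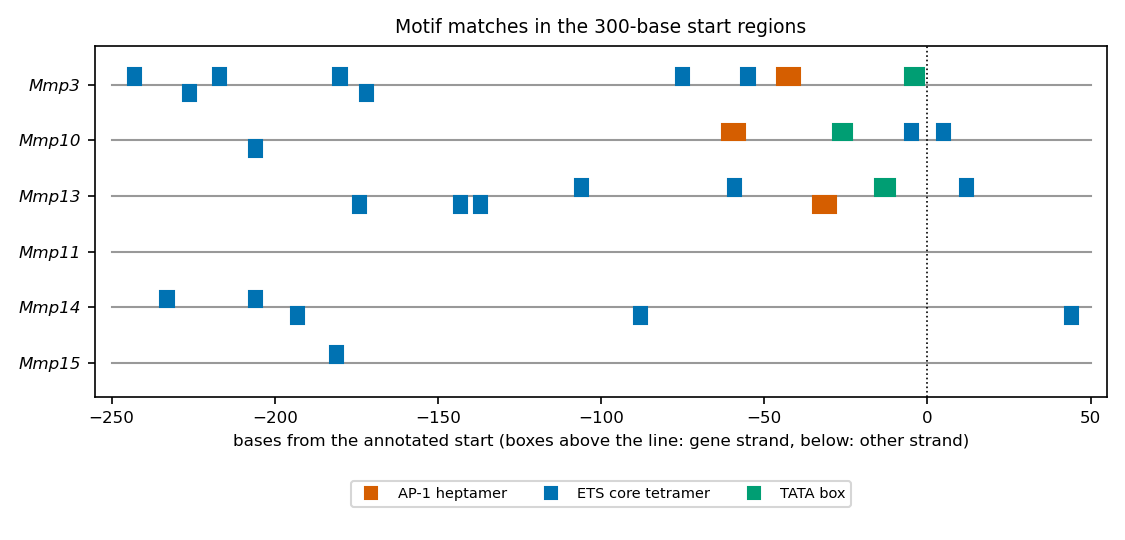
Motif matches in the start regions of the 6 MMP genes with a sequence. The x axis is the distance in bases from the annotated start (dotted line), boxes above a line are matches on the gene's strand and boxes below it on the other strand, and the AP-1 heptamer is seen in Mmp3, Mmp10 and Mmp13 only.

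To compare genes with each other, CPM were divided by the length of the merged exons in kb. On that scale the 9 genes summed to 204 and 216 CPM per kb in clone 1, 99.6 and 105 in clone 2 and 109 and 117 in control in 3D. In 2D the sums were 48.9 and 49.9 CPM per kb in clone 1, 39.1 and 34.7 in clone 2 and 61.0 and 60.2 in control. Clone 1 thus had the highest sums in 3D and sums below both control libraries in 2D. Mmp3, Mmp14 and Mmp9 made up most of the level everywhere, but their order changed. In 3D clone 1 had Mmp3 first at 107 ± 5.56 CPM per kb, before Mmp14 at 52.2 ± 0.959 and Mmp9 at 21.3 ± 0.764 (SD, n = 2). In 3D clone 2 had Mmp9 first at 37.1 ± 0.694, before Mmp14 at 31.6 ± 1.08 and Mmp3 at 18.4 ± 1.55. The 3D control had Mmp3 at 33.8 ± 1.69, Mmp14 at 29.3 ± 1.83 and Mmp9 at 27.8 ± 2.57, and its Mmp14 and Mmp9 libraries overlapped.

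In 2D Mmp14 came first in both clones, at 27.0 ± 0.927 CPM per kb in clone 1 and 20.4 ± 0.381 in clone 2, where it made up 54.6% and 55.2% of the summed level. In the 2D control Mmp3 came first at 22.1 ± 0.466, before Mmp14 at 16.3 ± 1.26, and they made up 36.5% and 26.8%. Mmp3 was 13.3% of the sum in clone 1 and 9.15% in clone 2 in 2D, and 50.8% in clone 1, 18.0% in clone 2 and 29.9% in control in 3D. Other neighbours whose libraries overlapped were Mmp9 and Mmp11 in clone 1 and Mmp11 and Mmp3 in clone 2 in 2D, Mmp11 and Mmp10 in the 3D control, and the pairs among Mmp13, Mmp19 and Mmp2 that stood last in each 2D group.

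**Figure D2:**
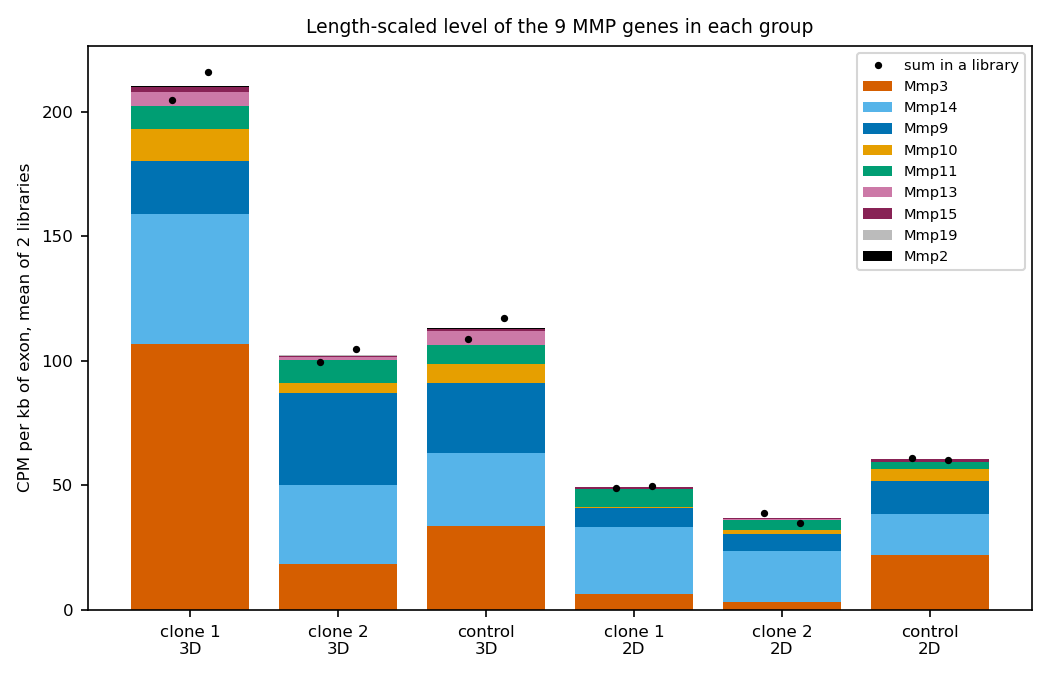
Length-scaled level of the MMP genes in each group. Bars stack the mean CPM per kb of exon of 2 libraries, and black points are the sums in single libraries. Mmp3 fills 50.8% of the bar of clone 1 in 3D and 13.3% of that of clone 1 in 2D.

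Differences were tested with edgeR's quasi-likelihood method fitted to all 12 libraries, and a gene was called when q, adjusted over the 13763 genes tested, was under 0.05. Changes are log2 changes with their standard error, the group named first minus the one it is set against. Of the 9 members 8 passed the filter on low counts and Mmp2 did not. Mmp13 and Mmp19 had at most 7 and 9 counts in any 2D library and passed through their 3D libraries.

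**Figure D3:**
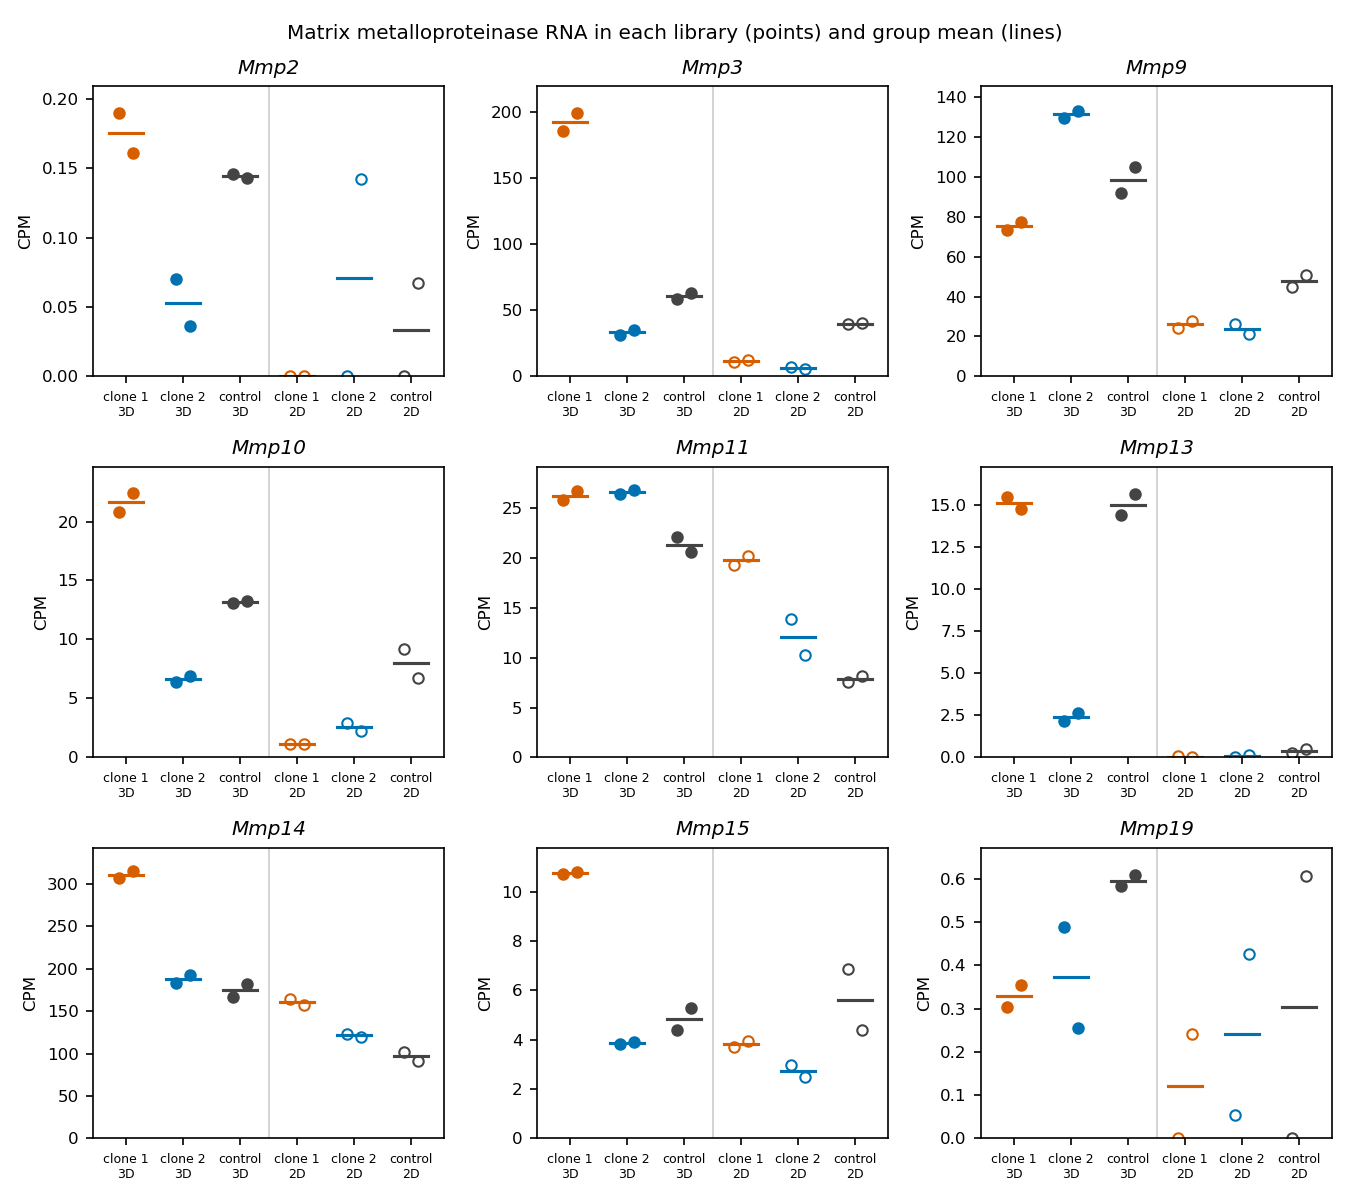
RNA level of each MMP gene. The y axis is CPM from 0 upwards with its own scale for each gene, points are single libraries (filled in 3D, open in 2D), lines are group means, and groups are clone 1, clone 2 and control in 3D and then in 2D. Mmp3 is at 185 and 199 CPM in clone 1 in 3D, above all other libraries.

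The clones were each compared with the control in each format, which asks how RNA of the Etv4-targeted lines differs from the control pool. It cannot part an effect of Etv4 from other differences of a single clone. Of the 8 members tested, clone 1 had 5 higher and 1 lower in 3D, where 45.1% of all genes were called, and 2 higher and 4 lower in 2D, where 39.8% were. Clone 2 had 2 higher and 3 lower in 3D, against 29.2% of all genes called, and 2 higher and 5 lower in 2D, against 33.9%. The median log2 change of the members tested was 0.51 in clone 1 and -0.50 in clone 2 in 3D, and -1.14 and -1.01 in 2D, with medians over all genes tested of 0.00 to 0.02. The members counted and the medians in 2D include Mmp13, lower in both clones, and Mmp19. These 2 genes had at most 11 and 9 counts in any 2D group and were kept through their 3D libraries. The 2D counts of members and their medians are thus a description only. Both clones share the same control libraries, so their changes are not independent of each other. Clone 2 against clone 1 gave 1 member higher and 5 lower in 3D (54.9% of all genes called) and 1 higher and 3 lower in 2D (41.6% called).

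**Figure D4:**
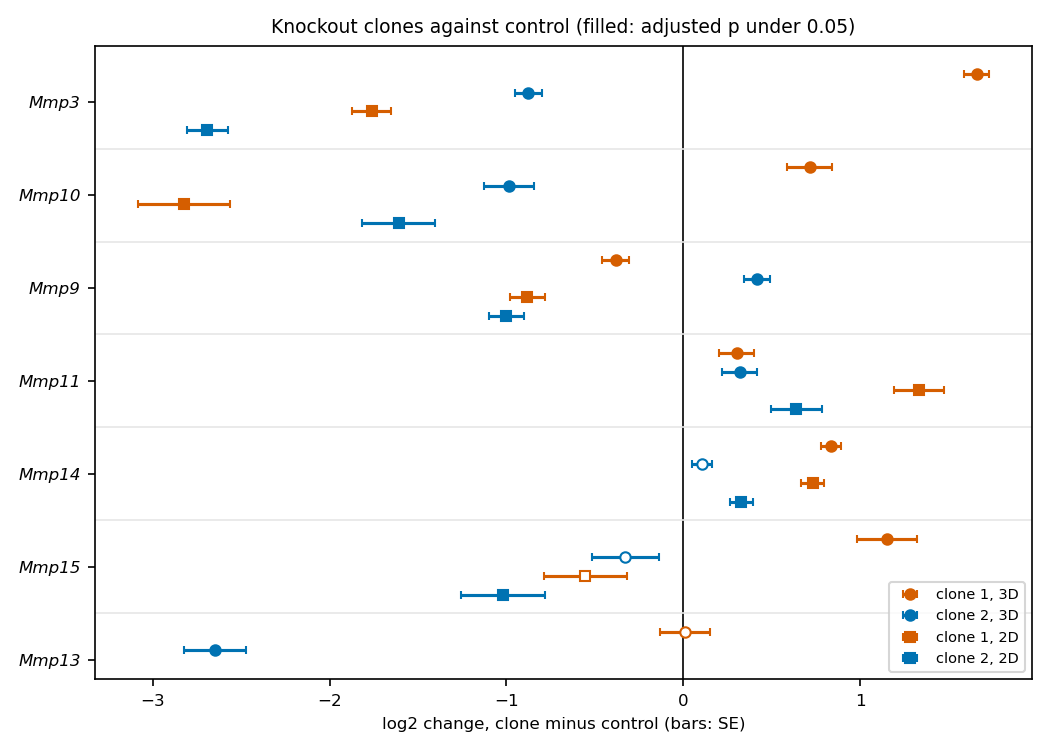
Log2 changes of 7 MMP genes in the clones against control. Points are edgeR estimates and bars their SE, circles are 3D and squares 2D, and filled symbols passed an adjusted p of 0.05. Values resting on a group with 3 counts or fewer (Mmp13 in 2D) are not drawn. Mmp3 and Mmp10 in clone 1 stand right of 0 in 3D and left of it in 2D.

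Among the stromelysins, Mmp3 (chromosome 9, 7445822 to 7455975, mm10), or stromelysin 1, cleaves proteoglycans, laminin and fibronectin and activates other MMP precursors. It was at 185 and 199 CPM in clone 1, 31.2 and 35.2 CPM in clone 2 and 58.7 and 63.0 CPM in control in 3D. On plastic Mmp3 was at 11.04 and 12.5 CPM in clone 1, 6.83 and 5.33 CPM in clone 2 and 39.3 and 40.5 CPM in control. No 2 groups overlapped, and clone 1 was above control in 3D and below it in 2D, while clone 2 was below control in both. In 3D Mmp3 rose by 1.66 ± 0.07 in clone 1 (q = 3.8e-16) and fell by 0.88 ± 0.08 in clone 2 (q = 1.3e-09). In 2D it fell by 1.76 ± 0.11 in clone 1 (q = 1.2e-12) and by 2.69 ± 0.12 in clone 2 (q = 4.3e-15). Clone 2 set against clone 1 gave -2.54 ± 0.07 in 3D (q = 5.3e-20) and -0.93 ± 0.15 in 2D (q = 1.1e-05).

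Mmp10 (chromosome 9, 7502352 to 7510240), stromelysin 2, has substrates much like those of Mmp3. Its level was 20.8 and 22.4 CPM in clone 1, 6.40 and 6.93 CPM in clone 2 and 13.1 and 13.3 CPM in control in 3D. Plastic cultures had 1.12 and 1.12 CPM in clone 1, 2.93 and 2.20 CPM in clone 2 and 9.23 and 6.75 CPM in control. The directions against control were those of Mmp3, but in 2D the lower clone was clone 1. In 3D Mmp10 rose by 0.71 ± 0.13 in clone 1 (q = 4.1e-05) and fell by 0.98 ± 0.14 in clone 2 (q = 4.5e-06). In 2D it fell by 2.82 ± 0.26 in clone 1 (q = 3.2e-09) and by 1.61 ± 0.21 in clone 2 (q = 1.4e-06). Clone 2 against clone 1 was -1.70 ± 0.14 in 3D (q = 4.9e-11) and 1.21 ± 0.32 in 2D (q = 0.0031). The 2D difference was not called without clone 2 replicate 1 in 2D (0.97, q = 0.0587). No run of 50 identical bases was shared between transcripts of Mmp3, Mmp10 and any other gene.

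The collagenase Mmp13 (chromosome 9, 7272514 to 7283331) cleaves fibrillar collagens and is the main interstitial collagenase of rodents. In gels its level was 15.5 and 14.8 CPM in clone 1, 2.13 and 2.66 CPM in clone 2 and 14.4 and 15.7 CPM in control. Clone 2 alone stood apart there, with a log2 change of -2.65 ± 0.18 against control (q = 8.9e-12) and -2.66 ± 0.18 against clone 1 (q = 1.4e-12). Clone 1 overlapped control in 3D, with a log2 change of 0.01 ± 0.14 (q = 0.972). In 2D Mmp13 was nearly absent, with 1 and 0 counts in clone 1, 0 and 2 counts in clone 2 and 4 and 7 counts in control. The 2D control was higher than clone 1 by a ratio of 10.1 (95% counting interval 1.47 to 435) and higher than clone 2 by a ratio of 6.14 (1.34 to 57.0). Both were called in the fit (q = 0.0305 and 0.0482), but the call was lost under 4 of 18 alternatives in clone 1 and 11 of 18 in clone 2, with q of up to 0.156 and 0.345. Without control replicate 2 in 2D q was 0.148 in clone 1 and 0.223 in clone 2, without clone 1 replicate 2 in 2D it was 0.156, and without clone 2 replicate 1 in 2D it was 0.345. Counting intervals cover counting error only.

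Of the gelatinases, Mmp9 (chromosome 2, 164940780 to 164955850), or gelatinase B, cleaves denatured collagens and the type IV collagen of basement membranes. In gels its level was 73.6 and 77.4 CPM in clone 1, 129.5 and 133 CPM in clone 2 and 92.0 and 105 CPM in control. On plastic Mmp9 was at 24.2 and 27.8 CPM in clone 1, 26.1 and 21.2 CPM in clone 2 and 44.6 and 50.9 CPM in control. The clones overlapped in 2D and lay on opposite sides of the control in 3D, the reverse of their order for Mmp3. In 3D Mmp9 fell by 0.38 ± 0.08 in clone 1 (q = 1.6e-04) and rose by 0.42 ± 0.07 in clone 2 (q = 8.7e-05), and clone 2 was higher than clone 1 by 0.80 ± 0.07 (q = 1.1e-09). In 2D it fell by 0.88 ± 0.10 in clone 1 (q = 1.1e-07) and by 1.00 ± 0.10 in clone 2 (q = 2.5e-08), with -0.12 ± 0.11 between clone 2 and clone 1 (q = 0.417). Mmp2 (chromosome 8, 92827291 to 92853420), gelatinase A, is made by fibroblasts more than by epithelial cells and was near absent here. It had 5 and 5 counts in clone 1, 2 and 1 in clone 2 and 4 and 4 in control in 3D, and 0 and 0 in clone 1, 0 and 2 in clone 2 and 0 and 1 in control in 2D.

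Of the membrane-type members, Mmp14 (chromosome 14, 54431612 to 54445364), or MT1-MMP, cleaves fibrillar collagen at the cell surface and activates the precursor of Mmp2. In gels its level was 307 and 315 CPM in clone 1, 183 and 193 CPM in clone 2 and 167 and 182 CPM in control. On plastic Mmp14 was at 165 and 157 CPM in clone 1, 123 and 120.0 CPM in clone 2 and 102 and 91.6 CPM in control. Clone 1 was above the control in both formats, and clone 2 was closer to it. In 3D Mmp14 rose by 0.83 ± 0.06 in clone 1 (q = 5.4e-12), with 0.11 ± 0.06 in clone 2 (q = 0.170), which was called when the 3D table was fitted alone (0.10, q = 0.0388). In 2D it rose by 0.73 ± 0.06 in clone 1 (q = 1.1e-09) and by 0.33 ± 0.06 in clone 2 (q = 2.4e-04). Clone 2 set against clone 1 gave log2 changes of -0.73 ± 0.06 in 3D (q = 3.1e-11) and -0.40 ± 0.06 in 2D (q = 8.0e-06).

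The 461 genes tested on chromosome 14 had median log2 changes in clone 1 of 0.21 (3D) and 0.19 (2D). With each chromosome centred on its median, Mmp14 was still called in clone 1, with 3D and 2D values of 0.72 and 0.60. Mmp15 (chromosome 8, 95352268 to 95375080), MT2-MMP, is another membrane-anchored member. It was at 10.7 and 10.8 CPM in clone 1, 3.81 and 3.90 CPM in clone 2 and 4.38 and 5.30 CPM in control in 3D. On plastic Mmp15 was at 3.70 and 3.94 CPM in clone 1, 2.98 and 2.49 CPM in clone 2 and 6.85 and 4.38 CPM in control. Clone 1 was thus the highest group in 3D and lay below both control libraries in 2D. Mmp15 rose by 1.15 ± 0.17 in clone 1 in 3D (q = 3.7e-06), and clone 2 set against clone 1 gave -1.48 ± 0.18 there (q = 6.3e-08) and -0.46 ± 0.26 in 2D (q = 0.159). In 2D it fell by 1.02 ± 0.24 in clone 2 (q = 0.0016), a call lost without control replicate 1 in 2D (-0.67, q = 0.0655). The 2D value in clone 1 was -0.55 ± 0.23 (q = 0.0617), and without control replicate 2 in 2D it was called at -0.84 (q = 0.0071), while without control replicate 1 in 2D it was -0.20 (q = 0.615). In clone 2 in 3D the value was -0.33 ± 0.19 (q = 0.215).

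Of the other secreted members, Mmp11 (chromosome 10, 75923222 to 75936496), or stromelysin 3, is activated by furin inside the cell and is known from the stroma of breast tumours. A gene on the opposite strand, Chchd10, covers 5.58% of its exon length, and the strand setting of the counting is not given in the sources used here. It was at 25.9 and 26.7 CPM in clone 1, 26.4 and 26.8 CPM in clone 2 and 22.1 and 20.6 CPM in control in 3D. On plastic Mmp11 was at 19.4 and 20.2 CPM in clone 1, 13.9 and 10.3 CPM in clone 2 and 7.55 and 8.16 CPM in control. Mmp11 was above control in both clones and both formats. In 2D it rose by 1.33 ± 0.14 in clone 1 (q = 2.8e-08) and by 0.64 ± 0.15 in clone 2 (q = 0.0013), a call lost without clone 2 replicate 1 in 2D (0.39, q = 0.0810). In 3D it rose by 0.30 ± 0.10 in clone 1 (q = 0.0171) and by 0.32 ± 0.10 in clone 2 (q = 0.0186). The 3D calls were lost without any single 3D library of the groups compared, at q of 0.0578 to 0.183 in clone 1 and 0.0626 to 0.196 in clone 2. With chromosomes centred the 3D value in clone 2 was 0.15 (q = 0.316). Clone 2 set against clone 1 gave -0.69 ± 0.13 in 2D (q = 8.7e-05) and 0.02 ± 0.10 in 3D (q = 0.906).

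Mmp19 (chromosome 10, 128790910 to 128800824), a secreted member found in many tissues, was near the limit of detection. It had 8 and 11 counts in clone 1, 14 and 7 in clone 2 and 16 and 17 in control in 3D, and 0 and 3 in clone 1, 1 and 6 in clone 2 and 0 and 9 in control in 2D. The genes Gm47093 and Tmem198b on the opposite strand cover 28.3% of its exon length, so these reads are uncertain. No comparison of Mmp19 passed the test with all libraries, and without control replicate 2 in 2D, which held all its 2D control counts, 3D against 2D in control was called (q = 0.0113). The highest-to-lowest order of its groups cannot be read at this depth.

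Each clone and the control were also compared between formats. In 3D against 2D 7 of the 8 members tested were higher and 0 lower in clone 1, against 75.1% of all genes called, 6 were higher and 0 lower in clone 2 (79.5% of all genes called), and 6 were higher and 0 lower in control (77.2% called). The median log2 change of the members tested was 1.53 in clone 1, 1.24 in clone 2 and 0.89 in control, with medians of 0.08, 0.11 and 0.10 over all genes tested. The share called among the members was close to that of all genes, so the count itself marks nothing out. Mmp13, which is counted as higher in all 3, and Mmp19 passed the filter through their 3D libraries, so these counts and medians are a description only.

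Mmp13 had the widest contrast, with 866 counts in 3D against 1 in 2D in clone 1, a ratio of 404 (95% counting interval 72.3 to 15967), and 134 against 2 in clone 2, a ratio of 38.9 (10.6 to 324). In control it had 832 counts in 3D and 11 in 2D, at 14.4 and 15.7 CPM in 3D and 0.280 and 0.472 CPM in 2D. These values are a description, since Mmp13 was kept by the filter only through its 3D libraries. Mmp3 rose by 4.03 ± 0.09 in clone 1 (q = 5.9e-23), by 2.43 ± 0.11 in clone 2 (q = 9.5e-17) and by 0.61 ± 0.08 in control (q = 1.5e-07). Mmp10 rose by 4.26 ± 0.22 in clone 1, 1.35 ± 0.20 in clone 2 and 0.73 ± 0.15 in control. Mmp9 rose by 1.54 ± 0.09 in clone 1, 2.46 ± 0.09 in clone 2 and 1.04 ± 0.08 in control. Mmp11 rose by 0.41 ± 0.11 in clone 1, 1.12 ± 0.12 in clone 2 and 1.44 ± 0.13 in control, and Mmp14 rose by 0.95 ± 0.06 in clone 1, 0.63 ± 0.06 in clone 2 and 0.85 ± 0.06 in control. Mmp15 rose by 1.49 ± 0.20 in clone 1 (q = 2.3e-07), with 0.48 ± 0.23 in clone 2 (q = 0.0602) and -0.21 ± 0.20 in control (q = 0.345), which was called at -0.49 without control replicate 2 in 2D (q = 0.0410). In clone 2 Mmp15 was called under 5 of 18 alternatives, at q of 0.0310 to 0.0426.

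**Figure D5:**
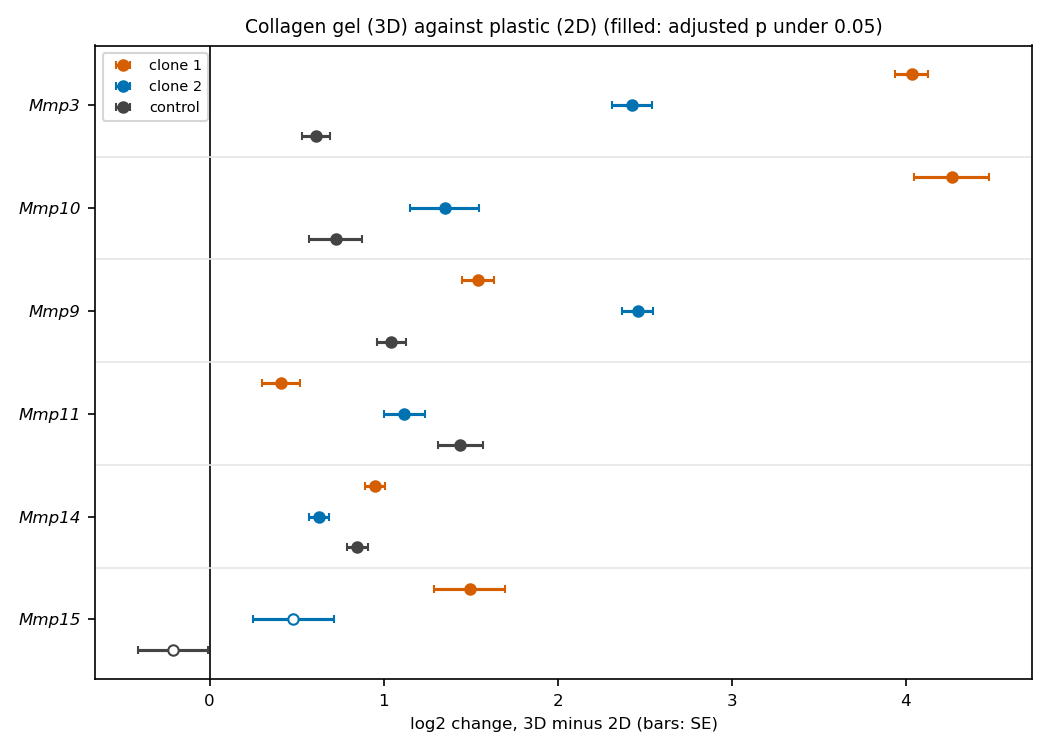
Log2 changes of 6 MMP genes in collagen gels against plastic, in clone 1, clone 2 and control. Points are edgeR estimates, bars their SE and filled symbols passed an adjusted p of 0.05. Mmp13, kept by the filter only through its 3D libraries, is not drawn. The change of Mmp3 is 4.03 in clone 1, 2.43 in clone 2 and 0.61 in control.

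Whether the difference between clone and control itself differed between formats was tested as an interaction, the clone's change in 3D minus its change in 2D. For clone 1 it was called in 5 of the 8 members tested, 4 higher and 1 lower, against 7.02% of all genes. It was 3.42 ± 0.13 for Mmp3 (q = 4.1e-16), 3.54 ± 0.29 for Mmp10 (q = 4.0e-09) and 1.70 ± 0.29 for Mmp15 (q = 3.1e-04). All 3 had positive log2 changes in 3D and negative ones in 2D, that of Mmp15 in 2D without passing the test. For Mmp11 it was -1.03 ± 0.17 (q = 3.0e-04), a smaller rise in 3D than in 2D, and for Mmp9 it was 0.50 ± 0.13 (q = 0.0143), a smaller fall in 3D. The Mmp9 call was lost without control replicate 2 or clone 1 replicate 1 in 2D, or control replicate 1 or clone 1 replicate 2 in 3D, with q of 0.0628 to 0.125. Mmp14 had an interaction of 0.10 ± 0.08 in clone 1 (q = 0.545).

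For clone 2 the interaction was called in 2 of the 8 members, both higher, against 22.2% of all genes. It was 1.82 ± 0.14 for Mmp3 (q = 3.1e-09), whose fall was smaller in 3D, and 1.42 ± 0.12 for Mmp9 (q = 1.2e-08), which was below control in 2D and above it in 3D. Mmp14, at -0.22 ± 0.09 (q = 0.0648), Mmp10, at 0.63 ± 0.26 (q = 0.0824), Mmp15, at 0.69 ± 0.31 (q = 0.111), and Mmp11, at -0.32 ± 0.18 (q = 0.213), did not pass. Mmp14 was called with chromosomes centred (-0.30, q = 0.0157) and without control replicate 1 in 2D (-0.30, q = 0.0143) or in 3D (-0.29, q = 0.0396), and Mmp11 without clone 2 replicate 2 in 2D (-0.50, q = 0.0415), with a range of -0.50 to -0.076 (q of up to 0.862) for Mmp11 over single libraries left out. Interactions of Mmp13 rest on 3 counts or fewer in the 2D clones, and none was called. Without control replicate 2 in 2D the count of called members was 4, with Mmp10 at 0.83 (q = 0.0188) and Mmp15 at 0.98 (q = 0.0179). Etv4 RNA itself had an interaction of 0.16 ± 0.09 in clone 1 (q = 0.341) and 0.57 ± 0.09 in clone 2 (q = 5.5e-05), and its part in the MMP values was not tested.

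Of 14 other MMP genes 13 were in the tables and 4 were tested. Mmp1b (chromosome 9, 7368239 to 7388047), a rodent interstitial collagenase homologue that lies between Mmp13 and Mmp3, was at 6.87 and 7.73 CPM in clone 1, 0.664 and 0.547 CPM in clone 2 and 0.766 and 0.502 CPM in control in 3D. On plastic Mmp1b was at 1.26 and 1.69 CPM in clone 1, 0.217 and 0.356 CPM in clone 2 and 1.96 and 0.944 CPM in control. There Mmp1b held only 39 counts in clone 1, 9 in clone 2 and 42 in control. It rose by 3.52 ± 0.30 in clone 1 in 3D (q = 4.4e-10), fell by 2.36 ± 0.55 in clone 2 in 2D (q = 0.0015) and had an interaction of 3.50 ± 0.52 in clone 1 (q = 6.4e-05) and 2.30 ± 0.72 in clone 2 (q = 0.0219). Mmp12, the macrophage elastase, overlaps Mmp1b by 1261 bases on the opposite strand, so reads of both are uncertain. Mmp12 was at 0.721 and 0.258 CPM in clone 1, 0.105 and 0.109 CPM in clone 2 and 0.109 and 0.0358 CPM in control in 3D, which is 27, 6 and 4 counts in all. It was called higher in clone 1 there (q = 0.0253), but a clone 1 library in 3D helped it pass the filter, so this is a description only. The other pair tested, Mmp23 and Mmp24, was not called in either clone against control. In 3D against 2D, of the 4 tested, 2 were higher and 1 lower in clone 1 (75.1% of all genes called). The counts were 1 higher and 0 lower in clone 2 (79.5%), and 1 higher and 2 lower in control (77.2%). Mmp24 changed by -0.91 ± 0.34 in clone 1 (q = 0.0183) and -0.87 ± 0.39 in control (q = 0.0454). Mmp1b changed by 2.32 ± 0.30 in clone 1 (q = 1.3e-07) and -1.18 ± 0.41 in control (q = 0.0119). Mmp23, higher in all 3, held 0 to 4 counts in the 2D groups and passed the filter through its 3D libraries. The counts of this list between formats are thus a description only. Mmp7, Mmp8 and Mmp27 had 0 counts in every library, which allows up to 3 counts per library.

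Activators, inhibitors and docking partners of MMPs were followed as a list of 20 genes, of which 15 were tested. In clone 1 8 were higher and 2 lower in 3D, where 45.1% of all genes were called, and 6 higher and 3 lower in 2D, where 39.8% were. In clone 2 1 was higher and 6 lower in 3D (29.2% of all genes called), and 5 higher and 4 lower in 2D (33.9%). The median log2 change was 0.28 in clone 1 and -0.02 in clone 2 in 3D, and 0.00 and 0.20 in 2D, with medians over all genes of 0.00 to 0.02. Pcsk6, a furin-like proprotein convertase, was at 38.6 and 40.5 CPM in clone 1, 0.490 and 0.328 CPM in clone 2 and 2.92 and 2.54 CPM in control in 3D. Pcsk6 rose by 3.85 ± 0.13 in clone 1 in 3D (q = 2.8e-18) and by 2.73 ± 0.14 in 2D (q = 2.1e-14). In clone 2 its log2 change was -2.72 ± 0.27 in 3D (q = 1.2e-08) and -0.68 ± 0.19 in 2D (q = 0.0069). Serpine2, protease nexin 1, was at 1.29 and 1.58 CPM in clone 1, 0.210 and 0.292 CPM in clone 2 and 9.52 and 9.35 CPM in control in 3D. It was 6.52-fold lower in clone 1 (q = 3.7e-10) and 36.9-fold lower in clone 2 (q = 1.6e-12), and their libraries lay below all control libraries. In 2D it had 3 counts in clone 1, 1 in clone 2 and 63 in control. Timp1, an inhibitor of secreted MMPs, was at 27.3 and 27.3 CPM in clone 1, 13.1 and 12.5 CPM in clone 2 and 21.4 and 21.1 CPM in control in 3D. Timp2, which inhibits MMPs and also bridges Mmp14 and the precursor of Mmp2, was at 1126 and 1144 CPM in clone 1, 720.4 and 742 CPM in clone 2 and 794 and 824 CPM in control in 3D.

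Plau, the urokinase that generates plasmin, an activator of MMP precursors, had an interaction of 0.86 ± 0.09 in clone 1 (q = 1.5e-07). Its change in clone 1 was a rise of 0.44 ± 0.06 in 3D (q = 6.9e-07) and a fall of 0.42 ± 0.06 in 2D (q = 8.0e-06). In clone 2 Plau also fell in 2D, with a log2 change of -0.39 ± 0.06 (q = 3.6e-05). Its 3D levels were 317 and 321 CPM in clone 2 and 315 and 320 CPM in control. Across formats the list had 9 genes higher and 4 lower in clone 1, 10 higher and 5 lower in clone 2 and 10 higher and 5 lower in control in 3D, where 75.1%, 79.5% and 77.2% of all genes were called in clone 1, clone 2 and control. Among them Timp1 fell by 1.70 ± 0.08 in clone 1, 2.37 ± 0.08 in clone 2 and 1.55 ± 0.08 in control, and Timp2 rose by 1.48 ± 0.05 in clone 1, 1.25 ± 0.05 in clone 2 and 1.37 ± 0.05 in control. Cd44, a cell surface receptor that docks Mmp9 and Mmp14, rose by 1.90 ± 0.06 in clone 1, 1.72 ± 0.06 in clone 2 and 1.88 ± 0.06 in control.

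Another list held 18 genes of AP-1, ETS, Runx and NF-kB factors, all tested. In clone 1 7 were higher and 6 lower in 3D, against 45.1% of all genes called, and 6 higher and 8 lower in 2D, against 39.8%. In clone 2 3 were higher and 4 lower in 3D, against 29.2%, and 2 higher and 4 lower in 2D, against 33.9%. Their median log2 change was 0.13 in clone 1 and -0.04 in clone 2 in 3D, and -0.12 in both in 2D. Fosl1, an AP-1 subunit, was at 391 and 387 CPM in clone 1, 208 and 207 CPM in clone 2 and 302 and 309.5 CPM in control in 3D. In 2D Fosl1 was at 28.3 and 36.4 CPM in clone 1, 26.7 and 27.7 CPM in clone 2 and 40.2 and 37.8 CPM in control. It rose by 0.35 ± 0.06 in clone 1 in 3D (q = 2.3e-05) and fell by 0.56 ± 0.06 in clone 2 (q = 3.7e-08), and its interaction was 0.62 ± 0.10 in clone 1 (q = 2.9e-04) and -0.04 ± 0.11 in clone 2 (q = 0.863). Junb, another AP-1 subunit, had an interaction of 0.62 ± 0.07 in clone 1 (q = 2.8e-06) and -0.32 ± 0.07 in clone 2 (q = 0.0025). It averaged 337 CPM in clone 1, 363 CPM in clone 2 and 392 CPM in control in 3D. The 2D means were 146 CPM in clone 1, 301 CPM in clone 2 and 260 CPM in control. Junb in clone 1 was thus below control in both formats, and less so in 3D. Ets2, an ETS factor, fell in clone 1 by 0.66 ± 0.07 in 3D and 0.81 ± 0.08 in 2D, and Etv5, of the PEA3 group, by 0.70 ± 0.07 in 3D (q = 5.1e-09). In 2D Etv5 averaged 27.4 CPM in clone 1, 45.5 CPM in clone 2 and 44.7 CPM in control. Clone 2 averaged 110 CPM of Ets2 and 64.9 CPM of Etv5 in 3D, beside 112 and 69.5 CPM in control. Its Ets2 mean in 2D was 56.6 CPM, beside 64.4 CPM in control. The part of these factors in the MMP values was not tested.

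In gels against plastic 16 of these factors were higher and 2 lower in clone 1, 14 higher and 2 lower in clone 2, and 15 higher and 2 lower in control, beside 75.1%, 79.5% and 77.2% of all genes called. Fos was at 375 to 486 CPM in 3D libraries and 0.380 to 1.21 CPM in 2D libraries, and Fosb at 731 to 875 CPM in 3D and 1.19 to 3.21 CPM in 2D. Fos and Fosb are immediate early genes, the digestion step cannot be told apart from the format, and the part of either in the MMP values was not tested. Sums of markers of other cells also differed between formats, and 1 gene made up most of each. The 8 fibroblast markers, 5 detected in 3D and 3 in 2D, summed to 19.9 to 23.8 CPM in 3D and 4.11 to 7.39 CPM in 2D, mostly Pdgfra, with Col3a1, Pdgfrb and Lum at 0 in every library. The 6 leukocyte markers summed to 7.56 to 11.1 CPM in 3D, with Adgre1, Lyz2 and Itgam at 0, and to 1.68 to 5.46 CPM in 2D, with Adgre1 and Itgam at 0. Cd68 made up most of these sums, and the other leukocyte markers averaged at most 0.984 CPM in any group. The 5 endothelial markers summed to 3.39 to 5.64 CPM in 3D and 8.53 to 14.9 CPM in 2D, with Emcn at 0 in both. Egfl7 made up most of these sums, and the other endothelial markers averaged at most 0.537 CPM in any group. The abundant transcript Gm26917 took 10.9 to 14.95% of the counts in 3D libraries and 1.75 to 2.03% in 2D libraries. Their part in the MMP values was not tested.

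Genes with the most similar profile were sought among 9516 other genes with a mean of at least 5 CPM, by the root mean square (RMS) difference between the centred mean log2 CPM of the 6 groups. This is a description over 6 groups that share libraries and formats. For Mmp3 the nearest were Ptgs1, at an RMS difference of 0.56 against a range of 4.97 for Mmp3 itself, and Steap3, at 0.62. Ptgs1, cyclooxygenase 1, averaged 98.7 CPM in clone 1, 10.6 CPM in clone 2 and 32.0 CPM in control in 3D, and 12.6 CPM in clone 1, 3.92 CPM in clone 2 and 14.6 CPM in control in 2D. For Mmp10 the nearest were Slc7a11, the cystine transporter, at 0.61, and Mmp3, at 0.68. Those of Mmp13 were Sema6d, a semaphorin, at 0.66, and mt-Nd6 at 0.98, which are loose matches. The 2D groups of Mmp13 held 1 count in clone 1, 2 in clone 2 and 11 in control. Its 2D profile is therefore poorly known. Those of Mmp14 were Aldh2 at 0.06 and Msn, the membrane-actin linker moesin, at 0.08, against a range of 1.68. Mmp9 was nearest to Vamp1 and Hdac5 (both 0.15), Mmp11 to Katnal1 (0.13) and Gnpda1 (0.16) and Mmp15 to B3glct (0.28) and Sult2b1 (0.29). None is given for Mmp19, whose groups held 33 counts or fewer in 3D and 9 or fewer in 2D.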

How the data were processed

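The values deposited by the authors are whole raw counts for 31017 gene symbols, with the 2D and the 3D libraries in a table each. The submitters' processing notes name mm10, STAR 2.7.9a, featureCounts, FastQC 0.11.9, Cell Ranger 3.0.0 and R 4.1.1. What each did and the strand setting are not given in the sources used here. The library kit keeps strand, per the labels' protocols.

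After a join on the symbol, edgeR 4.0.16 (R 4.3.3) was run with filterByExpr (minimum count 10), TMM scaling, a mean for each of 6 groups over 12 libraries, and quasi-likelihood tests of 11 contrasts, two-sided, with Benjamini-Hochberg adjustment over 13763 genes. Residual degrees of freedom were 6, and the biological coefficient of variation was 4.51%. CPM use the TMM-scaled library sizes. The SE is the log2 change divided by the square root of its F. Positions, exon lengths and overlaps are from GENCODE M21 (mm10), and start regions from RefSeq (GRCm38.p6). A fold with 3 counts or fewer in a group is given as a count ratio with an exact 95% interval. The fit was tested on simulated data. Replicates of a group differed by more than sampling noise (chi-square over degrees of freedom of 3.51 to 9.51).

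All 9 members were named in every comparison, and up to 3 genes with the smallest p per list, beside a few others chosen after their values were seen. Of the activator and inhibitor list 1 gene is deliberately not reported by name here. Most other genes of that list go unnamed too and stand only in its counts. The members and lists were chosen with earlier results of these data known. Alternatives were other size factors, the DESeq2 1.42.0 Wald test, a looser filter, 2 abundant transcripts left out, a replicate block, each table alone, chromosomes centred and each library left out. Changes of genes outside the members were not followed under them.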

Additional observations from a re-analysis of the deposited data

Results flagged for a closer look

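The values here were picked out because the effect in one clone or format differed from that in the other by a direct test (edgeR, adjusted over all genes). Clone 2 against clone 1 in 3D differed by a log2 change of -2.54 for Mmp3, 0.80 for Mmp9, -1.70 for Mmp10, -2.66 for Mmp13, -0.73 for Mmp14 and -1.48 for Mmp15. In 2D it differed by -0.93 for Mmp3, 1.21 for Mmp10, -0.69 for Mmp11 and -0.40 for Mmp14. The clone 1 change in 3D minus that in 2D was 3.42 for Mmp3, 0.50 for Mmp9, 3.54 for Mmp10, -1.03 for Mmp11 and 1.70 for Mmp15. The clone 2 change differed between formats by 1.82 for Mmp3 and 1.42 for Mmp9. Each clone is 1 line, and clone and culture history cannot be told apart.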

How the results depend on the processing

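The number of MMP genes called stayed within 1.5 times its value in each of the 11 comparisons under every alternative run, except for the interaction of clone 2 and format, which had 2 called and 2 to 4 with single libraries left out (4 without control replicate 2 in 2D). Of the changes of single members under alternatives, 1434 kept direction and side of the threshold, 31 lost a call, 15 gained one and 20 changed sign. Those that changed sign were small or rested on few counts, and only 1 was called. Mmp11 in clone 2 against clone 1 in 3D, at 0.02, was -0.0044 with DESeq2's size factors, -0.0041 with the DESeq2 Wald test, -0.0050 with Gm26917 and Gm42418 left out, and -0.28 after centring each chromosome (adjusted p = 0.0228, edgeR), where chromosome 10 had a median of 0.20. With chromosomes centred, Mmp14 in clone 2 in 3D was -0.0022 and Mmp19 in clone 2 against clone 1 in 3D -0.11. Mmp13 in clone 1 in 3D was -0.0020 with the 3D table alone. With single libraries left out, ranges that crossed 0 were -2.39 to 5.30 for Mmp19 in clone 2 in 2D, -0.062 to 0.073 for Mmp13 in clone 1 in 3D, -0.29 to 0.012 for Mmp9 in clone 2 against clone 1 in 2D, -0.36 to 0.57 for Mmp19 in clone 2 against clone 1 in 3D, -0.49 to 0.14 for Mmp15 and -0.024 to 6.73 for Mmp19 in control in 3D against 2D, -0.18 to 2.67 for Mmp19 in clone 2 in 3D against 2D and -5.96 to 1.72 for Mmp19 in the interaction of clone 2. The cause was not tested. Over all genes tested, same-numbered libraries did not deviate together (correlations of -0.04 to 0.02 over 15 pairs of groups). That cannot show that they share no batch, since single genes may still go with the number and the labels do not give the replicates' origin. With the replicate block, Mmp13 in clone 2 in 2D, at 0 and 2 counts, lost its call (adjusted p = 0.0520, edgeR). The counts of called members were otherwise within 1.5 times those without the block. Leaving out a library leaves its group with 1, which is then assumed to vary like the others. Depth limits Mmp2, Mmp19 and, in 2D, Mmp13.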
